A study of Mus musculus with 6 samples.

Results

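The myoblast fusion genes are 10 genes that encode the fusogens and adhesion molecules with which muscle precursor cells join into multinucleated fibres. They were chosen by name from the deposited expression table, and all 10 of 10 names were found once each among its 55416 rows. They are *Mymk* and *Mymx* (fusogens), *Cdh15* and *Cdh2* (cadherins), *Ncam1*, *Jam2* and *Jam3* (immunoglobulin-type adhesion molecules), and *Cav3*, *Dysf* and *Myof* (membrane proteins of caveolae, repair and fusion). Each was measured in 6 libraries of satellite cells (SCs, the muscle stem cells) grown for 4 days, 3 from wild-type (WT) mice and 3 from lactoferrin knockout (*Ltf*-KO) mice. The knockout was systemic, made by CRISPR-Cas9 in C57/BL6N zygotes, so that every cell of the animal lacks part of *Ltf*. In both genotypes the cells were taken from digested hind leg muscle, sorted as Sca1-/CD11b-/CD34+/α7-integrin+ cells and kept in growth medium with serum and basic fibroblast growth factor, without any other treatment. The gate is given as the methods state it, but CD11b and CD34 are not among the antibodies that they name. The methods give the age of the mice in weeks, a range of young adults, for all experiments of the study unless noted otherwise. Their sex and age are not listed by library, nor is it stated whether each library came from its own mouse, so the p-values below measure the spread between these 6 cultures, which may be technical.

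Fusion begins when cycling myoblasts leave the cell cycle and turn on muscle genes. Cadherins and immunoglobulin-type molecules hold the cells together, Mymk (myomaker) drives mixing of the outer membrane leaflets, and Mymx (myomixer, a microprotein) opens the pore. Caveolin 3 and the ferlins act at the membrane of muscle cells, where dysferlin serves membrane repair and myoferlin supports fusion of myoblasts. Cdh2, Ncam1 and the Jam proteins are also used outside muscle, in nerve, Schwann and endothelial cells.

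The values are TPM (transcript abundances, that is reads divided by gene length and scaled to a common total per library), so levels of different genes can be set side by side, but the sequencing depth behind them is unknown. The libraries summed to 993650 to 994356 TPM. *Ltf* was at 0.12, 0.02 and 0.02 TPM in WT replicates 1 to 3 and at 0.02, 0.03 and 0 TPM in *Ltf*-KO replicates 1 to 3, near the floor in both, so it does not check the labels. Of 11 satellite cell markers 8 were well expressed in every library, among them *Myod1* at 748 to 816 TPM and *Pax7* at 36.6 to 43.3 TPM. The other 3 were low, with *Cd34*, a marker of the stated gate, at 4.41 to 6.20 TPM, *Pax3* at 1.04 to 1.81 TPM and *Chrdl2* at 0.04 to 0.24 TPM. Genes of differentiating muscle were also present, with *Myog* at 266 to 508 TPM. Markers of other cell types were low. The summed level of 10 macrophage genes was 12.7 to 19.9 TPM in WT and 10.1 to 13.8 TPM in *Ltf*-KO, that of 10 endothelial genes 15.9 to 30.3 and 14.97 to 25.7 TPM, that of 10 Schwann cell genes 32.6 to 53.3 and 39.3 to 52.4 TPM, and that of 10 fibroblast genes 104 to 109 and 103 to 138 TPM, most of it *Col3a1*. Of 9 pericyte and smooth muscle genes (*Des*, which muscle cells also express, left out) the sum was 63.5 to 65.9 TPM in WT and 62.5 to 77.5 TPM in *Ltf*-KO, and *Higd1b* was listed at 0 in all libraries. In such bulk samples fewer cells of a type and less RNA per cell cannot be told apart.

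All 10 fusion genes were expressed and all passed the filter of a mean of at least 1 TPM, which kept 12956 genes. The membrane protein *Myof* was the most abundant, with a mean of 283 TPM over 6 libraries (range 258 to 306), at the 96.2 percentile of the tested genes. *Cdh2* followed with 197 TPM (189 to 203). *Ncam1* (130 TPM, 116 to 147), *Jam2* (126 TPM, 108 to 145) and *Mymk* (121 TPM, 102 to 160) overlapped in their ranges, so that their order was not beyond the spread. *Cdh15* stood below them at 81.9 TPM (73.9 to 94.6). *Jam3* (33.2 TPM, 30.2 to 35.0), *Mymx* (27.5 TPM, 17.8 to 40.4) and *Cav3* (21.9 TPM, 17.5 to 31.5) overlapped from neighbour to neighbour. *Dysf* was the lowest at 7.76 TPM (6.32 to 9.66), apart from all others and at the 32.1 percentile. The deposited annotation carries the term myoblast fusion for 3 of the 10 genes, *Mymk*, *Mymx* and *Myof*.

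**Figure D1:**
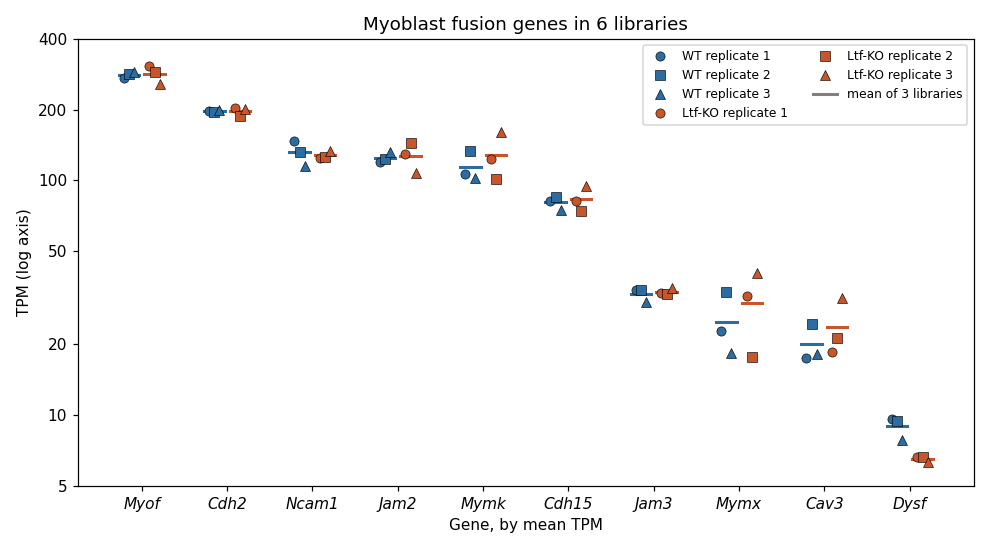
TPM (log axis) of the 10 fusion genes in 3 WT and 3 Ltf-KO libraries, ordered by mean, with each replicate as a point and the mean of each genotype as a line. Myof is highest (258 to 306 TPM) and Dysf lowest, and Dysf is the only gene of the 10 whose 3 Ltf-KO points (6.32 to 6.65 TPM) all lie below its 3 WT points (7.81 to 9.66 TPM).

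The first question was whether the fusion genes differed between *Ltf*-KO and WT SCs. They were compared with limma, a linear model fitted to log2(TPM + 1) of all 12956 tested genes with p-values adjusted over all of them by the Benjamini-Hochberg method. Of the 10 fusion genes, 0 had a limma adjusted p under 0.05, against a background of 0% of tested genes (0 of 12956). At an unadjusted p under 0.05 there was 1, *Dysf*, against a background of 3.78% (490 genes). It was lower in *Ltf*-KO, where the background is 1.78%, and 0 of the 10 were higher, where the background is 2.01%. Of the 490 genes 46.9% were lower in *Ltf*-KO, a share that was 60.0% with quantile normalization and 57.6% with median-of-ratios scaling. The genotypes did not overlap for 1 of the 10, again *Dysf*, where the background is 8.46%. The median log2 fold change of the 10 genes was 0.028 beside 0.011 for all tested genes, and 7 of the 10 were above 0, as were 55.7% of all.

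**Figure D2:**
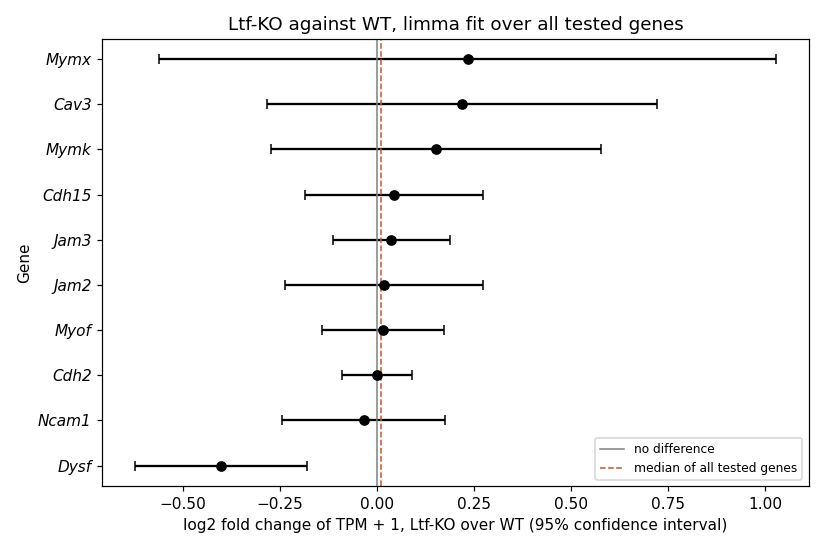
Log2 fold change of TPM + 1 in Ltf-KO over WT for the 10 fusion genes, as points with 95% confidence intervals from limma (n = 3 libraries per genotype). The intervals of 9 genes include 0, that of Mymx is the widest (-0.56 to 1.03), that of Cdh2 the narrowest (-0.091 to 0.090), and that of Dysf runs from -0.62 to -0.18 before adjustment over all genes.

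*Mymk* (ENSMUSG00000009214) lies on the minus strand of chromosome 2 of GRCm38, chr2:27061636-27072179. It was at 107, 133 and 102 TPM in WT replicates 1 to 3 and at 123, 102 and 160 TPM in *Ltf*-KO replicates 1 to 3. The highest value was *Ltf*-KO replicate 3 and the lowest *Ltf*-KO replicate 2, so that the *Ltf*-KO libraries spanned the WT range on both sides. The means were 114 ± 16.8 TPM in WT and 128 ± 29.7 TPM in *Ltf*-KO (SD, n = 3), a log2 fold change of 0.15 with a standard error of 0.18 (limma adjusted p = 0.999). Without *Ltf*-KO replicate 3 the log2 fold change was -0.021, so 1 library set its sign.

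*Mymx* (ENSMUSG00000079471, chr17:45600971-45602102, minus strand) varied most. It was at 22.7, 33.5 and 18.4 TPM in WT replicates 1 to 3 and at 32.2, 17.8 and 40.4 TPM in *Ltf*-KO replicates 1 to 3. Within WT the highest library was 1.83 times the lowest and within *Ltf*-KO 2.28 times, and the genotypes overlapped over nearly their whole range. The means were 24.9 ± 7.80 TPM in WT and 30.1 ± 11.5 TPM in *Ltf*-KO (SD, n = 3), a log2 fold change of 0.23 with a standard error of 0.33 (limma adjusted p = 0.999). It was -0.0099 once *Ltf*-KO replicate 3 was left out. The 95% confidence interval of the fold ran from 0.678 to 2.04, so a 2-fold rise of *Mymx* could not be told from no change in these cultures. The microprotein transcript was 0.175 to 0.262 times as abundant as that of *Mymk*, and this ratio was lowest in *Ltf*-KO replicate 2 and WT replicate 3, where both fusogens were lowest.

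The cadherins bind like to like between neighbouring cells. *Cdh15* (M-cadherin, ENSMUSG00000031962, chr8:122847966-122867397, plus strand), the cadherin of myoblasts and satellite cells, was at 81.9, 84.6 and 74.9 TPM in WT replicates 1 to 3 and at 81.3, 73.9 and 94.6 TPM in *Ltf*-KO replicates 1 to 3. As for the fusogens, *Ltf*-KO replicate 3 was highest and *Ltf*-KO replicate 2 lowest. The means were 80.5 ± 5.00 and 83.3 ± 10.5 TPM (SD, n = 3), a log2 fold change of 0.043 with a standard error of 0.096 (limma adjusted p = 0.999). It was -0.052 when *Ltf*-KO replicate 3 was left out and -0.0071 when WT replicate 3 was left out. In GENCODE M21, Gm20388 on the same strand spans the whole of *Cdh15*. It was listed at 18.0 to 24.9 TPM, so the split of reads between the 2 genes is uncertain.

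*Cdh2* (N-cadherin, ENSMUSG00000024304, chr18:16588877-16809246, minus strand), the cadherin that muscle cells share with nerve, was the steadiest of the 10. It was at 198, 195 and 199 TPM in WT replicates 1 to 3 and at 203, 189 and 201 TPM in *Ltf*-KO replicates 1 to 3. The highest library was 1.07 times the lowest. The log2 fold change was -0.00022 with a standard error of 0.038 (limma adjusted p = 0.999), with a 95% confidence interval of the fold from 0.939 to 1.06, the narrowest of the 10. *Cdh15* reached 0.377 to 0.471 times the level of *Cdh2*, highest in *Ltf*-KO replicate 3 and lowest in WT replicate 3. The catenins *Ctnnb1* (440 TPM in WT and 436 TPM in *Ltf*-KO), *Ctnna1* (254 and 259 TPM) and *Ctnnd1* (79.7 and 83.5 TPM), which link cadherins to actin, were abundant in both genotypes, and 0 of the 4 tested catenins had a limma p under 0.05, adjusted or not.

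*Ncam1* (ENSMUSG00000039542, chr9:49502136-49798925, minus strand), a homophilic adhesion molecule of muscle and nerve, was at 147, 132 and 116 TPM in WT replicates 1 to 3 and at 124, 126 and 133 TPM in *Ltf*-KO replicates 1 to 3. WT held both the highest and the lowest library, and the 3 *Ltf*-KO libraries lay between them. The log2 fold change was -0.034 with a standard error of 0.087 (limma adjusted p = 0.999), and 0.049 without WT replicate 1. Schwann cells use *Ncam1* and *Cdh2* too. Their defining gene *Sox10* was low but not at 0 (2.99 to 6.62 TPM), and it was lowest in WT replicate 1, where *Ncam1* was highest.

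*Jam2* and *Jam3* (JAM-B and JAM-C), which bind each other across cell contacts, went in different directions across the cultures. *Jam2* (ENSMUSG00000053062, chr16:84774123-84825928, plus strand) was at 120, 123 and 132 TPM in WT replicates 1 to 3 and at 130, 145 and 108 TPM in *Ltf*-KO replicates 1 to 3. It was lowest in *Ltf*-KO replicate 3 and highest in *Ltf*-KO replicate 2, the reverse of *Mymk*, *Mymx* and *Cdh15*. Its log2 fold change was 0.019 with a standard error of 0.11 (limma adjusted p = 0.999). Leaving out WT replicate 1 gave -0.011, and leaving out *Ltf*-KO replicate 2 gave -0.078. *Jam3* (ENSMUSG00000031990, chr9:27097384-27155421, minus strand) was at 34.1, 34.0 and 30.2 TPM in WT replicates 1 to 3 and at 33.2, 32.7 and 35.0 TPM in *Ltf*-KO replicates 1 to 3, and only WT replicate 3 stood below the rest. Its log2 fold change was 0.036 with a standard error of 0.063 (limma adjusted p = 0.999), and -0.020 without WT replicate 3. An antisense gene within *Jam3*, Gm48796, was listed at 1.32 to 2.12 TPM, and since the strand of the reads is not stated its reads cannot be told from those of *Jam3*. Endothelial cells also express both *Jam* genes. The summed level of the 10 endothelial markers was 16.3, 15.9 and 30.3 TPM in WT replicates 1 to 3 and 24.8, 25.7 and 14.97 TPM in *Ltf*-KO replicates 1 to 3, lower in the 3 libraries in which *Jam2* was lowest. Of the 10 markers 6, among them *Cdh5* and *Pecam1*, were lower in each of these 3 libraries than in the others, and 4 (*Kdr*, *Vwf*, *Cldn5* and *Erg*) were not. The 3 libraries were picked by *Jam2*, and the share of all tested genes with this split was not counted. It was not particular to endothelial genes. The Schwann cell sum was also lower there (32.6, 43.3 and 39.3 TPM) than in WT replicate 3 (53.3 TPM) and *Ltf*-KO replicates 1 and 2 (45.1 and 52.4 TPM). The fibroblast, macrophage and pericyte sums did not split so. The part of other cell types in the *Jam2* values was not tested.

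*Cav3* (caveolin 3, the muscle form, ENSMUSG00000062694, chr6:112459505-112472872, plus strand) was at 17.5, 24.4 and 18.2 TPM in WT replicates 1 to 3 and at 18.6, 21.3 and 31.5 TPM in *Ltf*-KO replicates 1 to 3. WT replicate 2 and *Ltf*-KO replicate 3 were high, and the genotypes overlapped. The means were 20.0 ± 3.79 and 23.8 ± 6.78 TPM (SD, n = 3), a log2 fold change of 0.22 with a standard error of 0.21 (limma adjusted p = 0.999). It was 0.0086 once *Ltf*-KO replicate 3 was left out. The form of caveolin found in most cells, *Cav1*, was far more abundant, at 423 TPM in WT and 418 TPM in *Ltf*-KO, while *Cavin4*, the muscle cavin, was at 102 and 108 TPM. Of the 6 caveolins and cavins on the list, 0 had a limma p under 0.05, adjusted or not.

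The ferlins are large membrane proteins with many calcium-binding C2 domains. *Dysf* (dysferlin, ENSMUSG00000033788, chr6:84008590-84211060, plus strand) was at 9.66, 9.49 and 7.81 TPM in WT replicates 1 to 3 and at 6.65, 6.62 and 6.32 TPM in *Ltf*-KO replicates 1 to 3. All 3 *Ltf*-KO libraries were below all 3 WT libraries, which was so for 3.73% of the tested genes. The means were 8.99 ± 1.02 and 6.53 ± 0.182 TPM (SD, n = 3), a ratio of 0.727, with a log2 fold change of -0.40 (standard error 0.092, unadjusted p = 0.00396, limma adjusted p = 0.999). The difference did not pass the test over all genes. With each library left out in turn the log2 fold change ranged from -0.49 to -0.35, its unadjusted limma p from 0.00102 to 0.018 and its adjusted p from 0.823 to 1, and the *Ltf*-KO mean stayed below the WT mean. Some markers of other cell types also did not overlap between genotypes, named here after their values were seen. These were 1 of 7 tested fibroblast genes, 1 of 6 pericyte and smooth muscle genes (*Des* included) and 1 of 3 macrophage genes. Of 6 endothelial and 9 Schwann cell genes it was 0. Among all tested genes the share without overlap was 8.46%. *Mfap5* of the fibroblast list was at 1.24 to 2.24 TPM in WT and 2.66 to 3.78 TPM in *Ltf*-KO (log2 fold change 0.67, unadjusted p = 0.00884), and all 7 tested genes of that list were above 0, with a median of 0.19. *Pdgfrb* of the pericyte list was at 3.73 to 4.71 TPM in WT and 4.80 to 7.51 TPM in *Ltf*-KO (log2 fold change 0.52, unadjusted p = 0.0171). *Cd68* of the macrophage list was at 3.56 to 3.98 TPM in WT and 3.12 to 3.52 TPM in *Ltf*-KO (log2 fold change -0.11, unadjusted p = 0.276). Each had a limma adjusted p of 0.999, and their part in the *Dysf* values was not tested.

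*Myof* (myoferlin, ENSMUSG00000048612, chr19:37899036-38043577, minus strand) was at 272, 283 and 288 TPM in WT replicates 1 to 3 and at 306, 290 and 258 TPM in *Ltf*-KO replicates 1 to 3. The genotypes overlapped, with *Ltf*-KO replicate 1 highest and *Ltf*-KO replicate 3 lowest. The log2 fold change was 0.016 with a standard error of 0.066 (limma adjusted p = 0.999), and -0.038 without *Ltf*-KO replicate 1. *Myof* was 28.1, 29.8 and 36.9 times as abundant as *Dysf* in WT replicates 1 to 3 and 46.0, 43.8 and 40.8 times in *Ltf*-KO replicates 1 to 3. The ratios of the genotypes did not overlap, by way of *Dysf*. The other 4 ferlins were near the floor, with *Fer1l5* at 0.13 to 0.24 TPM and *Otof* listed at 0 in all libraries. Among partners of the ferlins in membrane repair, *Anxa2* (1071 TPM in WT and 1083 TPM in *Ltf*-KO), *S100a10* (603 and 600.2 TPM) and *Anxa6* (438 and 430.4 TPM) were abundant, and of 8 tested partners 0 had a limma p under 0.05, adjusted or not.

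The RefSeq windows from 250 bases before to 50 bases after the transcription start were found for 4 of the 10 genes, *Cav3*, *Cdh15*, *Dysf* and *Myof*. *Dysf* has 2 start sites. Shown are those of *Cdh15*, which was high and low in the same cultures as the fusogens, of *Cav3*, which was high with them in WT replicate 2 and *Ltf*-KO replicate 3, and of *Dysf*, the gene with the lowest p, all on the plus strand of GRCm38.p6. Capitals mark the E-box CANNTG, a general pattern that includes the sites of MyoD and myogenin and reads the same on both strands.
Cav3, chr6:112459255-112459554: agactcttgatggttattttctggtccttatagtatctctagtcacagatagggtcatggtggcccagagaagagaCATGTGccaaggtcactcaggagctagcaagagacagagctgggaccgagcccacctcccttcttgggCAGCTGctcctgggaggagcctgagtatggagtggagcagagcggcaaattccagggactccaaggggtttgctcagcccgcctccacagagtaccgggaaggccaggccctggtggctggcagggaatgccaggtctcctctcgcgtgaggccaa
Cdh15, chr8:122848124-122848423: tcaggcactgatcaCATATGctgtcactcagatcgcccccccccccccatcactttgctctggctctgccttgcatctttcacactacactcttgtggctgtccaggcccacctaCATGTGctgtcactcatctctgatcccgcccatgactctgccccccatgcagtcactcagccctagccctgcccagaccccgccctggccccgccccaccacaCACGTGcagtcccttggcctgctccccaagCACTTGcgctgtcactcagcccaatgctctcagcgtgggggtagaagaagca
Dysf, first start, chr6:84008348-84008647: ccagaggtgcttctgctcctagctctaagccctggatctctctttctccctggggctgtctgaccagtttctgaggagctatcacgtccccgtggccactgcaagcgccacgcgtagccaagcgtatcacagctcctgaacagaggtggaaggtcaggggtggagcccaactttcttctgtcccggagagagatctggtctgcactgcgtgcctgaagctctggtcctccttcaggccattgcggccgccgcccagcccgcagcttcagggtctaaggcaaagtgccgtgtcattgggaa
Dysf, second start, chr6:84019136-84019435: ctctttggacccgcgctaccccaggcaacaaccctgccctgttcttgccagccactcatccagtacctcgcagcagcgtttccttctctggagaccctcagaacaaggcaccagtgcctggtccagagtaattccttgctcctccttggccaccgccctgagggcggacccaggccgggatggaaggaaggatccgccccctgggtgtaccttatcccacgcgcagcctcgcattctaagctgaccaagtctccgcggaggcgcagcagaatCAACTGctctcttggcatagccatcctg

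*Cdh15* has 4 E-boxes in this window, the first beginning 236 bases and the last 2 bases before the RefSeq start. This start differs from that of GENCODE M21, where *Cdh15* begins at 122847966 and the whole window lies within the gene. *Cav3* has 2, and that of the form CAGCTG begins 106 bases before the start. *Dysf* has 0 in the first window and 1 in the second, and *Myof* has 0. Any E-box is common, as 72.3% of the 32851 promoter windows in the table hold at least 1, whereas CAGCTG, which is one of its forms, is in 16.3%. The forms CACCTG or CAGGTG are in 20.2%. *Cdh15* and *Dysf* have 0 of the form CAGCTG, and the windows of all 4 genes have 0 of CACCTG or CAGGTG. The MCAT element CATTCC, searched on both strands and bound by TEAD factors, is in the *Cav3* window and in 14.7% of all windows. A match of letters is a description and not a binding site.

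The second question was how the genes differed between cultures of the same genotype. The spread was taken as the SD of log2(TPM + 1) within genotypes and set beside tested genes of the same level, in classes of 1 to 10, 10 to 100 and at least 100 TPM. *Mymx* (SD 0.51, beside a median of 0.087 in its class), *Cav3* (0.32, beside 0.087), *Mymk* (0.27, beside 0.055) and *Jam2* (0.16, beside 0.055) lay above the 90 percentile of their classes, which is 4 of the 10 genes, where the background is 10.0% by construction. *Ncam1* (88.9 percentile), *Myof* (80.6) and *Cdh15* (78.7) were in the upper part. *Jam3* (42.0), *Cdh2* (30.5) and *Dysf* (25.8) spread less than the median gene of their class. For *Dysf* this depends on the class, since its SD of 0.11 was below the median of 0.17 at 1 to 10 TPM but above that of 0.087 at 10 to 100 TPM. Its coefficient of variation (SD over mean) was 11.4% in WT and 2.79% in *Ltf*-KO. The fusogens and *Cav3* thus varied from culture to culture more than most genes of their level, while *Cdh2* and *Jam3* did not.

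**Figure D3:**
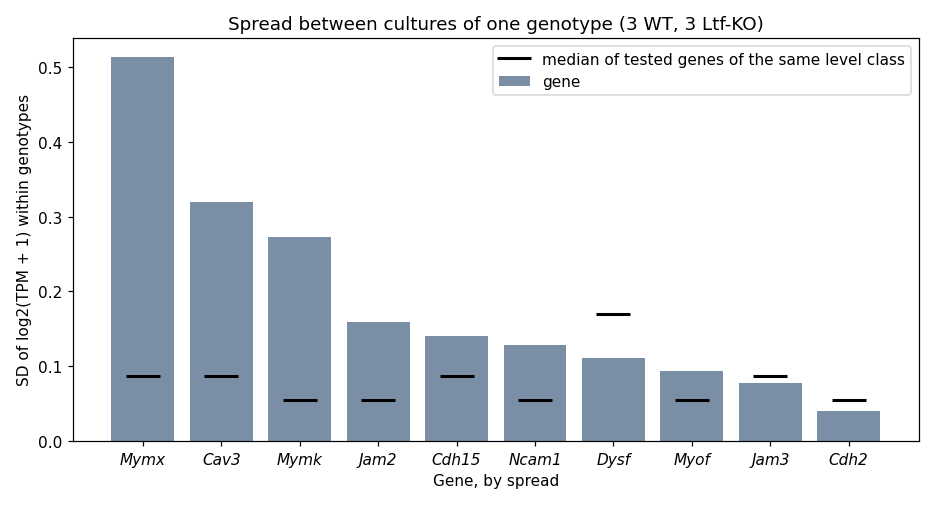
SD of log2(TPM + 1) between cultures of one genotype (bars, pooled over 3 WT and 3 Ltf-KO libraries) for the 10 fusion genes, beside the median of tested genes of the same level class (lines). Mymx (0.51), Cav3 (0.32) and Mymk (0.27) stand far above their class medians of 0.087, 0.087 and 0.055.

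The cultures also differed in how far muscle genes were on. A differentiation index was taken as the mean log2(TPM + 1) of 20 genes of differentiating muscle, among them *Myog*, *Myh3* and *Tnnc1*, none of which is a fusion gene. It was 6.32, 6.60 and 6.14 in WT replicates 1 to 3 and 6.38, 6.20 and 6.79 in *Ltf*-KO replicates 1 to 3, so that it was lowest in WT replicate 3 and highest in *Ltf*-KO replicate 3. *Myog* was at 319, 410.3 and 293 TPM in WT and at 360.4, 266 and 508 TPM in *Ltf*-KO replicates 1 to 3, with the same libraries at the top. The index overlapped between genotypes.

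Across the 6 libraries *Mymk* followed the index closely (r = 0.979, Spearman's rho = 0.943), as did *Cdh15* (0.961 and 0.886) and *Mymx* (0.935 and 0.943). These are descriptions over 6 libraries whose genes share 1 scaling per library, and 1.93% of all tested genes had an r above 0.9 with the index. Centred within genotypes, the values of r were 0.983, 0.960 and 0.932. Without WT replicate 2 and *Ltf*-KO replicate 3, the 2 libraries farthest from the median of the index, they were 0.876, 0.908 and 0.922 over the 4 others. For *Cav3* r was 0.854 and turned to -0.34 without these 2 libraries, so its relation to the index rests on them. *Jam3* had an r of 0.791. *Jam2* went the other way (r = -0.83, and -0.54 without the 2 libraries), and *Ncam1* (0.400), *Cdh2* (0.343), *Dysf* (-0.095) and *Myof* (-0.60) followed it less.

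In a limma fit of all 12956 genes on the index with genotype as a second term, *Mymk* rose by 0.99 on the log2 scale per unit of the index (95% confidence interval 0.73 to 1.25, unadjusted p = 0.000118, limma adjusted p = 0.0949). For *Mymx* the slope was 1.77 (1.00 to 2.53, adjusted p = 0.203), for *Cdh15* 0.50 (0.26 to 0.74, adjusted p = 0.214), for *Cav3* 1.01 (0.31 to 1.71, adjusted p = 0.327) and for *Jam2* -0.51 (-0.86 to -0.17, adjusted p = 0.323). These 5 of the 10 genes had an unadjusted p under 0.05, where the background is 10.7% of tested genes. The count was 3 without *Ltf*-KO replicate 3, where *Jam2* had a slope of -0.29 and *Cav3* of 0.67 (both with an unadjusted limma p of 0.195). Leaving out *Ltf*-KO replicate 2, which ended the call of *Jam2*, or WT replicate 2, which ended that of *Cav3*, gave 4. After adjustment 0 of the 10 passed, and the background is 0.0232% (3 of 12956 genes). *Dysf* had a slope of 0.11 (-0.43 to 0.65). With the index in the fit the *Ltf*-KO to WT difference of *Dysf* was -0.41 on the log2 scale (unadjusted p = 0.00668, limma adjusted p = 0.839), that of *Mymk* went from 0.15 to 0.050 and that of *Mymx* from 0.23 to 0.053. This fit was chosen after seeing the data.

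**Figure D4:**
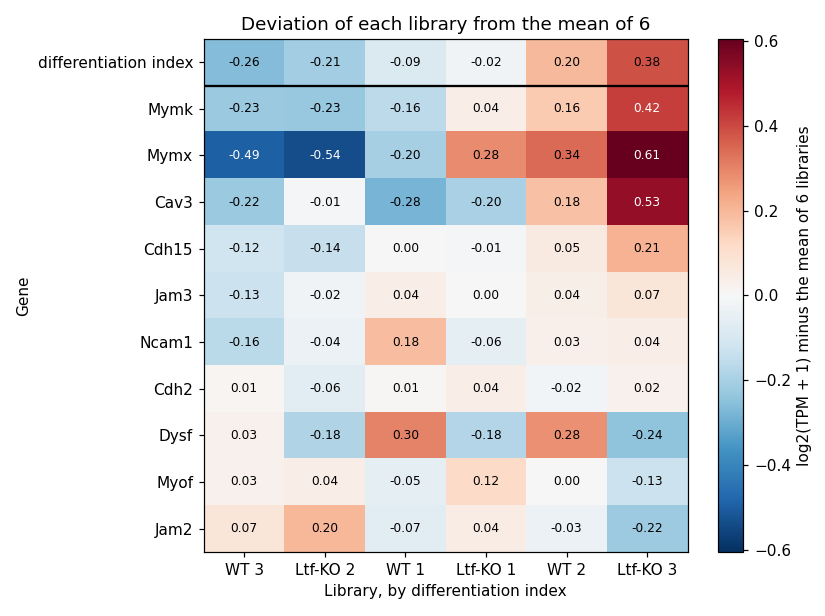
Deviation of log2(TPM + 1) from the mean of the 6 libraries for the differentiation index (top line) and the 10 fusion genes, with libraries ordered from the lowest index (WT replicate 3) to the highest (Ltf-KO replicate 3). Mymk, Mymx and Cdh15 go from low to high with the index, Jam2 goes from high to low, and Dysf is low in the 3 Ltf-KO libraries at any index.

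**Figure D5:**
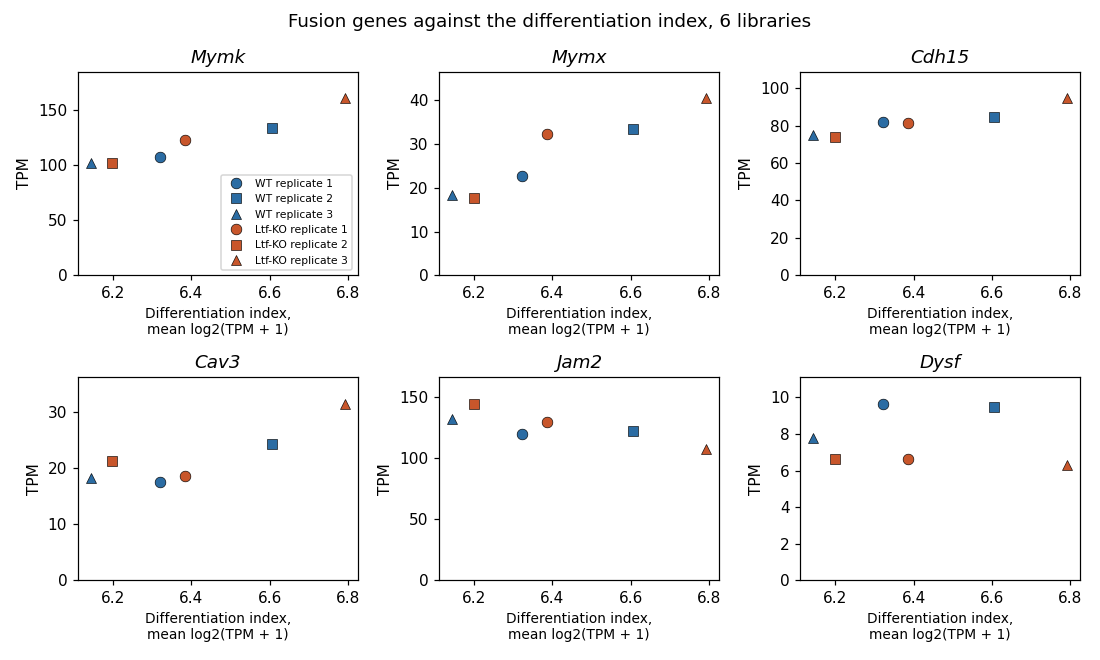
TPM of Mymk, Mymx, Cdh15, Cav3, Jam2 and Dysf (vertical axes from 0) against the differentiation index (horizontal axes, mean log2(TPM + 1) of 20 genes), 1 point per library, WT in blue and Ltf-KO in orange. WT and Ltf-KO points of Mymk lie along 1 band from 102 to 160 TPM, whereas the 3 Ltf-KO points of Dysf lie below the WT points over the whole range of the index.

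By correlation of log2(TPM + 1) over the 6 libraries, the genes most like *Mymk* among the other 12955 tested were *Tmod1* (r = 0.995), *Rpl21* (0.994), *Acat1* (0.993), *Hspb8* (0.993) and *Zfp568* (0.992). *Tmod1* caps actin filaments and was at 2.48 to 4.96 TPM, and *Hspb8*, a small heat shock protein, was at 99.4 to 151 TPM. Over so few libraries many genes reach such values, and among the fusion genes *Mymx* ranked 85 and *Cdh15* 115. Those most like *Cdh15* were *Traf3ip3* (0.998), *Cnn3* (0.996), *Gstz1* (0.995), *N4bp1* (0.995) and *Ric8b* (0.991), with *Mymk* at rank 76.

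The rest of the fusion machinery was read from lists of other genes of the pathway, 109 names in all, of which 106 were in the table and 84 were tested. Of these 84, 0 had a limma adjusted p under 0.05 and 1 had an unadjusted p under 0.05 (background 0% and 3.78%), with a median log2 fold change of 0.027 beside 0.011 for all tested genes. The gene at an unadjusted p under 0.05 was *Piezo1*, a mechanosensitive ion channel, at 152, 144 and 159 TPM in WT replicates 1 to 3 and at 139, 146 and 134 TPM in *Ltf*-KO replicates 1 to 3, a log2 fold change of -0.12 (unadjusted p = 0.0479, limma adjusted p = 0.999). Its genotypes overlapped. The next by p were *Il4ra*, the interleukin 4 receptor (log2 fold change 0.12), *Diaph1*, a formin (0.13), *Ctnnd1*, p120 catenin (0.067), *Cavin1* (0.058), *Ano5*, a muscle anoctamin (0.17), *Elmo1*, a partner of Dock1 (-0.25), and *Jup*, plakoglobin (0.15), each at a limma adjusted p of 0.999.

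For the counts that follow, 55.7% of all tested genes were above 0, with a median log2 fold change of 0.011. By role, 16 other adhesion molecules were tested, of which 9 were above and 7 below 0, with a median of 0.022. The most abundant were *Itgb1* (385 TPM in WT and 399.6 TPM in *Ltf*-KO), *Cd81* (330.2 and 338 TPM) and *Cd9* (308 and 292 TPM), an integrin and 2 tetraspanins. Of 26 genes of the Rac, Arf and actin machinery, which pushes the membranes together, 18 were above and 8 below 0, with a median of 0.027, and *Rhoa* (356 and 365 TPM), *Arpc2* (350.5 and 356 TPM) and *Myh9* (346 and 353 TPM) led in level. Of 8 genes of phosphatidylserine and membrane signals 2 were above and 6 below 0, with a median of -0.023. *Anxa1* was at 663 and 659 TPM and *Anxa5* at 259.9 and 256 TPM, whereas the receptors *Adgrb1*, *Adgrb3* and *Stab2* of this list were at 0.23 TPM or less in every library. Of 12 secreted factors, receptors and regulators 8 were above and 4 below 0, with a median of 0.058. *Capn2*, a calpain, was highest in this group (165 and 163 TPM), and *Il4* and *Il13* were listed at 0 in all libraries. Of 4 junctional adhesion relatives and scaffolds 3 were above and 1 below 0. None of these groups held a gene with a limma adjusted p under 0.05, and only the phosphatidylserine group, through *Piezo1*, held one with an unadjusted p under 0.05. Of the 20 differentiation genes 18 were above 0 in *Ltf*-KO, where the background is 55.7% of tested genes. Their median was 0.13, beside 0.011 for all tested genes, and 0 had a limma p under 0.05, adjusted or not. The index of these 20 genes overlapped between genotypes. It was highest in *Ltf*-KO replicate 3 (6.79), but WT replicate 2 (6.60) was above *Ltf*-KO replicates 1 and 2 (6.38 and 6.20).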

How the data were processed

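RNA-seq was done on SCs after 4 days of growth, 3 WT and 3 *Ltf*-KO libraries, grouped by the sample titles. The authors deposited TPM values per gene, normalized by the sequencing company's protocol. The header names no unit, and TPM was taken from the values. Aligner, counter and annotation are not given in the sources used here, and the submitters' processing notes name GRCm39. Gene coordinates are those of GENCODE M21 on GRCm38, matched by gene identifier, since no GRCm39 annotation was used here. TPM keeps no depth, so no counting error is given, and count tests were not run.

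The 12956 genes whose mean reached 1 TPM were fitted with limma 3.58.1 in R 4.3.3 on log2(TPM + 1), a scale that understates the change of low genes, with a variance trend and Benjamini-Hochberg adjustment over all of them, two-sided. The script was tested on simulated data with 12956 genes, where 92.5% of 200 genes changed 2-fold and 72.5% of 200 genes changed 1.5-fold, all above about 10 TPM, were recovered. Of the unchanged genes 8 and 15 were also called. The changed genes were drawn at random, so these rates do not describe *Mymx*, *Cav3* and *Mymk*, which spread widely. The simulated noise was independent between genes, whereas the fusogens and differentiation genes moved together across these cultures, so the rates may differ here. *Dysf* lies below the simulated level. Alternatives were another pseudocount, filter, scaling and variance model, the replicate number as a block, and each library left out. The fits on the differentiation index were added after seeing the data. Named were the 10 genes, *Ltf*, the 8 genes of the other fusion lists with the lowest p, the 3 most abundant of each list, cell type markers, and the 5 genes most like *Mymk* and *Cdh15*. *Myog* and *Sox10* stand for their lists, and further genes at the floor or next to a fusion gene were named after their values were seen. The genes and lists were chosen with earlier results of these data known.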

Additional observations from a re-analysis of the deposited data

How the results depend on the processing

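The count of 0 fusion genes at a limma adjusted p under 0.05 held under every alternative run, and 1 (*Dysf*) had an unadjusted p under 0.05 in each, apart from the filter of a mean of at least 10 TPM, which leaves *Dysf* out and gave 0. With each library left out in turn, log2 fold changes crossed 0 for *Mymk* (-0.021 to 0.30), *Mymx* (-0.0099 to 0.56), *Cdh15* (-0.052 to 0.12), *Cdh2* (-0.020 to 0.032), *Ncam1* (-0.12 to 0.049), *Jam2* (-0.078 to 0.13), *Jam3* (-0.020 to 0.066) and *Myof* (-0.038 to 0.086), none of them called, and the cause was not tested. That of *Cdh15* was -0.0082 with the differentiation index as a covariate. Slopes on the index crossed 0 for *Dysf* (-0.10 to 0.42), *Cdh2* (-0.049 to 0.11) and *Myof* (-0.35 to 0.028), and that of *Dysf* was -0.093 with no genotype term. Its r with the index was 0.28 centred within genotypes and 0.059 without the 2 farthest libraries, where that of *Cav3* was -0.34 and that of *Myof* 0.22. With no genotype term the slope of *Mymk* was 1.02 (limma adjusted p = 0.0335).

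Over all genes 0 to 6 had a limma adjusted p under 0.05 with 1 library left out. The count at an unadjusted p was 890 (411 lower) with no filter and 281 (137 lower) with the filter at 10 TPM, because the number of genes tested changed. Of the other fusion genes 3 had an unadjusted p under 0.05 with no filter, 4 with the index as a covariate, 0 without a variance trend, 0 with the replicate block, and 0 to 4 with 1 library left out. The deviations of same-numbered libraries correlated at -0.041, -0.058 and -0.088, which does not pair the samples, and with the replicate block 380 genes had an unadjusted p under 0.05 and the p of *Dysf* was 0.00787. Since TPM keeps no depth, how many reads stand behind each gene is unknown.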
